A study of Mus musculus with 16 samples.

Results

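Atp1b1, Atp1b2 and Atp1b3 encode the beta subunits of the sodium-potassium ATPase, and these 3 of the 25905 genes in the deposited gene table are described here. They were chosen by symbol. The table comes from retinas of wild type C57BL/6 male mice. Of these, 8 were flown on the International Space Station (Flight) and 8 were kept in the same housing hardware on Earth (Ground Control). The age is given as 10 weeks, which the paper states for the mice when they were flown, so the Flight retinas were taken at a later age. Flight mice spent about a month in orbit, and their eyes were collected after the return to Earth, so neither group holds retinas taken in orbit. The 16 libraries were made from total RNA of whole right retinas, so a level is an average over all cell types of the retina.

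The value given for each gene is the authors' mean normalized count, which is the count of reads per gene divided by a size factor of each library and averaged over both groups. Counts per library carry laboratory codes that no label ties to a mouse or a group, and they were not used. Levels per mouse, their spread, and the comparison of Flight with Ground Control are therefore not analysed here. Every value below is a single mean of 16 libraries without replicate error. Whether neighbouring values differ beyond the spread between mice was not tested.

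The sodium-potassium ATPase moves sodium out of the cell and potassium in at the cost of ATP. Its catalytic alpha subunit works only when paired with a beta subunit, a glycoprotein with 1 membrane span that brings the pump to the surface. In the dark, rods and cones take up sodium through light-gated channels of the outer segment, and the pumps of the inner segment return it, which makes this pump one of the large consumers of energy in the retina.

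The beta subunits had levels that were far apart. Atp1b2, the beta2 subunit, which is also known as an adhesion molecule on glia, had a mean normalized count of 23392. It was at rank 18 among all genes, above 99.9% of them, and took 0.334% of all normalized counts. Atp1b1, the beta1 subunit found in many tissues, had 2331 (rank 418, above 98.4% of genes). Atp1b3, the beta3 subunit, had 772 (rank 1902, above 92.7% of genes). The median over all genes was 6.98. Of the normalized counts of the beta subunits together, 88.3% belonged to Atp1b2, 8.80% to Atp1b1 and 2.91% to Atp1b3.

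**Figure D1:**
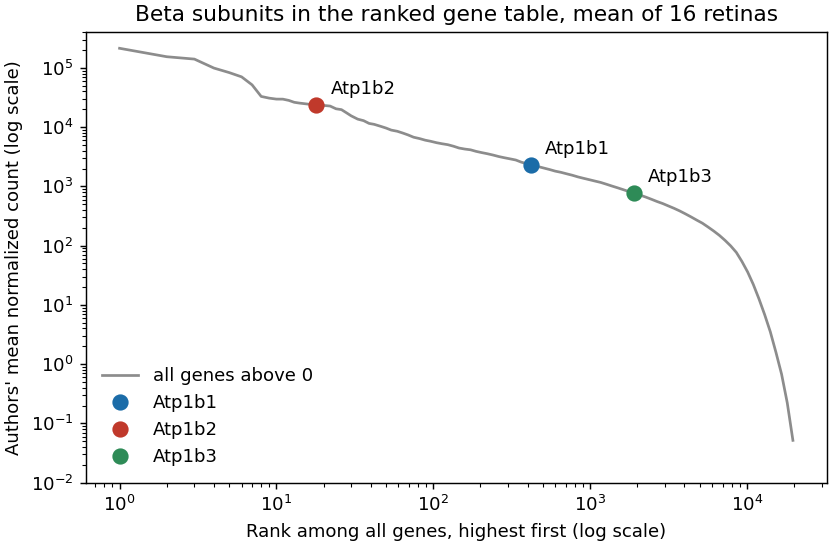
Authors' mean normalized count (vertical, log scale) against the rank of the gene from the highest (horizontal, log scale). The grey line is all genes above 0 and each point is a beta subunit. Atp1b2 lies at rank 18, Atp1b1 at 418 and Atp1b3 at 1902.

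Longer transcripts give more reads, so levels of different genes were compared per kilobase of transcript. With the longest reference transcript of each gene (3751 bases for Atp1b2, 2580 for Atp1b1 and 1994 for Atp1b3), the level per kilobase was 6236 for Atp1b2, 903 for Atp1b1 and 387 for Atp1b3. On that scale Atp1b2 was 6.90 times Atp1b1 and 16.1 times Atp1b3, and Atp1b1 was 2.33 times Atp1b3. Among 20840 genes with a reference length, Atp1b2 was at rank 17, Atp1b1 at 283 and Atp1b3 at 861 per kilobase. The longest transcript of Atp1b2 is not the reference transcript paired with the model that the authors counted. The paired transcript has 2842 bases. With that length its level per kilobase was 8231, which is 9.11 times Atp1b1 and 21.3 times Atp1b3. The order of the subunits was the same under each of the 4 lengths tried.

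**Figure D2:**
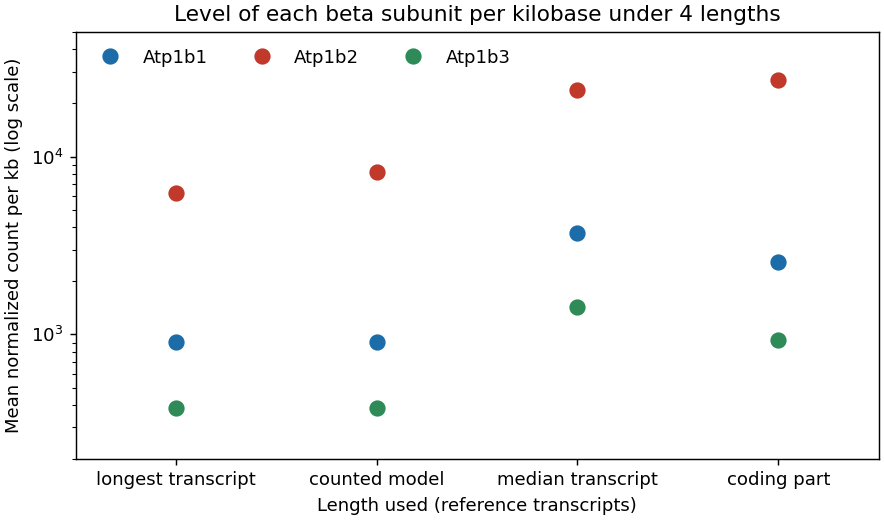
Mean normalized count per kilobase (vertical, log scale) of each beta subunit under 4 choices of length (horizontal). The length labelled counted model is that of the reference transcript paired with the counted model. Points are the authors' mean of 16 libraries, drawn without error bars because the spread between libraries was not analysed. Atp1b2 is above Atp1b1 and Atp1b1 above Atp1b3 in every column.

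Reads can only be assigned to a subunit where its sequence differs from the others, so the transcripts were compared with each other. On the assembly GRCm38, the transcripts paired with the counted models lie on the minus strand of chromosome 1 for Atp1b1, 11 for Atp1b2 and 9 for Atp1b3. Atp1b1 has 6 exons and the other two have 7 each. Their coding parts hold 304, 290 and 278 codons in the order Atp1b1, Atp1b2, Atp1b3. The reads had 75 bases, and the most similar ungapped stretch of 75 coding bases was searched for each pair of subunits.

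The closest pair was Atp1b2 with Atp1b3, in exon 2 of each (chr11:69603474-69603548 and chr9:96345814-96345888), where 55 of 75 bases were equal. Capitals mark the equal bases and small letters the 20 that differ. The stretch is shown because no other coding stretch of this length was more alike between the members:
Atp1b2: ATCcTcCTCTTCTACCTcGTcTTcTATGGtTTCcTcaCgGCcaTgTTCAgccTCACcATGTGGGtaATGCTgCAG
Atp1b3: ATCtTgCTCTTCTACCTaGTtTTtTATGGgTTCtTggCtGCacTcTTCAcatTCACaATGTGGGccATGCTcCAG

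For Atp1b1 with Atp1b2 the closest stretch ran across exons 2 and 3 (within chr1:164443346-164453558 and chr11:69603107-69603494), with 54 of 75 bases equal:
Atp1b1: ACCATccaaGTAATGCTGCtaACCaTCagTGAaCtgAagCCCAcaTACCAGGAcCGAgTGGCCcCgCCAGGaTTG
Atp1b2: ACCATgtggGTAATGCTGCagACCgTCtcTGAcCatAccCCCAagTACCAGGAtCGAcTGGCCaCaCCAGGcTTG

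Atp1b1 and Atp1b3 were the most distant, with 50 of 75 bases equal. The longest run of equal bases between any of the pairs was 19, in Atp1b1 and Atp1b2. No stretch of 75 bases in one beta subunit matched another with 2 or fewer mismatches, so reads of this length are not shared between the members at that tolerance.

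Stretches shared with genes outside the family were found for 2 of the members. All 2768 stretches of 75 bases in the Atp1b2 transcript were its own among 141767 reference transcripts. In Atp1b1, 430 of 2506 stretches (17.2%) also occurred in Nme7, a gene on the opposite strand whose exons share 575 bases with those of Atp1b1, and all lie in the untranslated part after the coding sequence. Nme7 had a mean normalized count of 16.1 with 2 counted models. The libraries were stranded, but whether the counting used the strand is not given in the sources used here. Without strand, reads in the shared bases cannot be told apart.

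In Atp1b3, 574 of 1920 stretches (29.9%) matched the processed pseudogene Gm1848 on chromosome X (chrX:21146844-21147640) with 2 or fewer mismatches, and 119 of the 1920 (6.20%) matched it exactly. All lie in the coding part. The following stretch of Atp1b3, in exon 4 (chr9:96340312-96340386), differs from the pseudogene at 2 bases, which are in capitals, and is shown as an example of reads that only these bases assign:
Atp1b3: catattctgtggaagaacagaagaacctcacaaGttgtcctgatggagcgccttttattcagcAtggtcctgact
Gm1848: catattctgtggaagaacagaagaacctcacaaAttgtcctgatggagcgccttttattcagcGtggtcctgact

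Reads that map equally well to more than 1 place are left out of a gene's count by the counting tool in its usual setting. How many reads of Atp1b3 were left out was not tested. The level of Atp1b3 is uncertain for this reason.

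The authors counted reads on 31616 RefSeq models, and each beta subunit had 1 model. So did 85.3% of genes in the table. Levels were higher for genes with 1 model, which had a median of 12.9 and 22.6% listed at 0. The 3794 genes with 2 or more models had a median of 0.806 and 32.7% listed at 0. Among the latter the median did not fall further with the number of models, while the upper part of the levels did. The median was 0.652 for genes with 2 models and 1.27 for genes with 3 or more. The 90th percentile was 83.6 and 63.8 in the same order. A read that falls on several overlapping models is ambiguous to the counting tool in its usual setting. The part of this in the levels was not tested. It bears on every comparison of the beta subunits with other genes below, and each gene named below had 1 model unless another number is given.

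**Figure D3:**
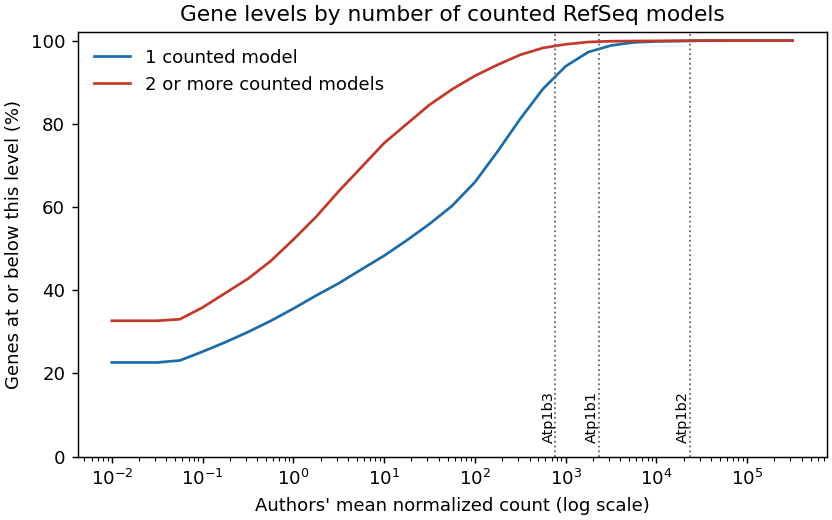
Share of genes at or below a given mean normalized count (vertical, percent) against that count (horizontal, log scale), for genes with 1 counted model and with 2 or more. Dotted lines mark the beta subunits, each with 1 model. Genes with 2 or more models lie to the left, with a median of 0.806 against 12.9.

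Of 37 markers for 10 cell types and tissues, 36 were in the table, and 5 of these had 2 or more models. Of the 5, 4 were below 100, and Trpm1, a channel of bipolar cells, was at 2866. Gnat1, the rod transducin, with 1 model, had 154477, and the rod marker Pde6a, also with 1 model, had 23335. Nrl, the transcription factor that specifies rods, with 2 models, was listed at 88.9. Among Müller glia markers, glutamine synthetase Glul with 1 model had 17455, while the retinoid binding protein Rlbp1 with 2 models had 1.39. Slc1a3 had 2056 and Aqp4 had 1755. Cone markers were between 941 and 2800, and bipolar cell markers between 675 and 2866. Amacrine and horizontal cell markers ranged from 91.6 for Onecut1 to 2415 for Gad1. Ganglion cell markers ranged from 5.53 for Rbpms with 3 models to 1730 for Thy1. Endothelium markers ranged from 0.446 for Pecam1 with 2 models to 99.5 for Cdh5. Pigment epithelium markers were low to moderate, between 2.72 for Best1 and 540 for Ttr. Lens markers ranged from 49.1 for Mip to 898 for Cryaa. Microglia markers were between 24.9 and 39.0. The part of neighbouring tissues in the levels of the beta subunits was not tested.

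The other beta-type genes were near 0. Atp1b4, a muscle protein of the same family, was at 0.0699, and Atp4b, the beta subunit of the gastric proton pump, was at 1.36, each with 1 model.

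The FXYD proteins are small membrane proteins that bind the pump and tune its affinity for ions. Of 7 genes, Fxyd6 was the most abundant at 342 and Fxyd7, known from brain, had 76.3, each with 1 model. Fxyd3 was at 5.15, and Fxyd5, with 2 models, was at 2.11. Fxyd1, Fxyd2 and Fxyd4 were listed at 0, with 4, 3 and 2 models, so a value of 0 is not read as absence. The median of the list, which is the value of Fxyd5, was 2.11, against 6.98 over all genes, and 4 of the 7 genes had 2 or more models.

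The Nkain proteins, which bind the beta1 subunit, had a median of 6.56, against 6.98 over all genes. Nkain1 had 110 and Nkain3 had 9.32, each with 1 model. Nkain2 had 3.79 with 2 models, and Nkain4 was listed at 0 with 2 models.

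Genes that carry the dark current differed widely, and those highest in mean normalized count were from rods. Slc24a1, the rod exchanger that removes calcium, had 22011, and Cnga1, a subunit of the rod light-gated channel, had 8658. Per kilobase of the longest transcript they were at 4222 and 3161, between Atp1b2 and Atp1b1. Cngb1, the other subunit of the rod channel, had 145 with 1 model. Kcnv2, a subunit of the inner segment potassium channel, had 5691. Per kilobase of the longest transcript it was at 1114, also between Atp1b2 and Atp1b1. With the median length of the reference transcripts Kcnv2 was below Atp1b1, at 1114 against 3741. Of the cone channel subunits, Cngb3 had 237 and Cnga3 had 149. Slc24a2, the cone exchanger and the lowest of this list of 7, was at 14.2 with 2 models. The median of the list was 237.

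Calcium pumps, which share the ATP-driven cycle of the pump, were led by Atp2b1 of the plasma membrane at 5774 with 1 model. Atp2b3 had 356 with 1 model. The 4 genes with several models had between 0 (Atp2a3) and 154 (Atp2b4). Atp2b1 was above Atp1b1 by mean normalized count and below it per kilobase of the longest transcript, at 810 against 903. With the median length of the reference transcripts the order turned, at 3955 for Atp2b1 and 3741 for Atp1b1.

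**Figure D4:**
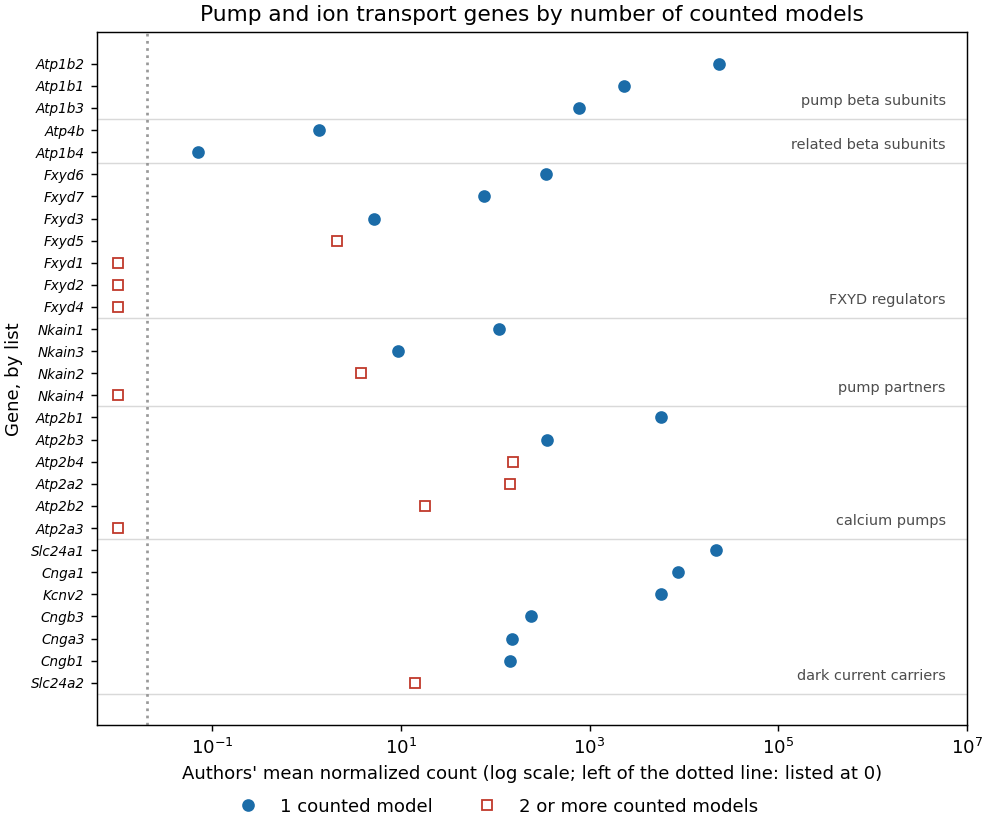
Authors' mean normalized count (horizontal, log scale) of the beta subunits and of 26 genes in 5 lists. Filled circles have 1 counted model and open squares 2 or more, and symbols left of the dotted line are listed at 0. All 5 genes at 0 have 2 or more models.

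Over these 26 genes, the 15 with 1 model had a median of 149 and 0 of them were listed at 0. The 11 with 2 or more models had a median of 2.11, and 5 were listed at 0. The highest of the latter was 154, which is below Atp1b3. Genes were not matched for function or cell type between these groups. Of the 15, Slc24a1 was the nearest to Atp1b2 by mean normalized count.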

How the data were processed

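Retinal RNA of 8 Flight and 8 Ground Control mice was sequenced as single-end reads of 75 bases. After trimming (Trimmomatic), the authors aligned reads by TopHat2 against an NCBI mouse build older than GRCm38, obtained counts per RefSeq model from HTSeq, and ran DESeq2 1.22.2 in R 3.5.1. The signal used here is the authors' deposited mean normalized count per gene, averaged by DESeq2 over all libraries. The summed means came to 6995811. The deposited names of the counted models were used as another kind of information, without values. The authors' log2 fold-changes, standard errors and p-values, and their table of genes past a threshold, were not used. The 32 columns of counts per library, 16 in each of 2 tables, could not be tied to samples, so the planned quasi-likelihood test in edgeR was not run.

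Transcript lengths, exons and sequences came from GENCODE M21 (GRCm38), joined by symbol for 80.4% of genes, and coding lengths from the same annotation. Files give no positions, and no positions were converted between builds. Sharing was searched in reference transcripts on both strands, not in the genome. The search was tested on simulated sequences. Members and lists were chosen with earlier results of these data known. Named are all members and, by list, the most and least abundant genes; others were named after their values were seen. Some genes of the lists are not reported here. Python 3.11.15, numpy 2.4.6, pandas 2.3.3 and matplotlib 3.10.9 were used.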

Additional observations from a re-analysis of the deposited data

How the results depend on the processing

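Levels per kilobase depended on the length used. With the median length of the reference transcripts, which include short fragments, they were 3741 for Atp1b1, 23557 for Atp1b2 and 1426 for Atp1b3. With the coding length they were 2555, 26888 and 925 in the same order. The length of the reference transcript paired with the counted model was also used, a choice made after seeing the data. With it the level of Atp1b2 was 8231. Those of Atp1b1 and Atp1b3 did not move, because their paired transcript is also their longest. For Atp1b1 the counted model was NM_009721.5 and the pairing was by version NM_009721.6, so the counted length itself was not used. The ratio of Atp1b2 to Atp1b1 ranged from 6.30 to 10.5 over these lengths, and the order of the subunits was the same in each. Atp1b2 to Atp1b3 ranged from 16.1 to 29.1, and Atp1b1 to Atp1b3 from 2.33 to 2.76. Among genes above 0, Atp1b3 was above 90.3% of genes. Per kilobase it was above 95.9% of the 20840 genes with a reference length, genes at 0 included. No paired analysis was possible because no column of counts carries a replicate number of the labels. For the same reason, DESeq2 size factors, thresholds on adjusted p-values and another adjustment, which were planned as alternatives, were not run. Counts per library were not used, so no interval is given for these means. The order of Atp2b1 and Atp1b1 per kilobase turned with the median length, at 3955 against 3741.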
